A study of Homo sapiens with 8 samples.

Results

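The integrin sgRNAs of the screen were the 91 sgRNAs whose target gene carries an integrin alpha (ITGA) or beta (ITGB) symbol, chosen by name alone, out of 9929 targeting sgRNAs and 10429 sgRNAs in all. They target 13 of the 1420 library genes, with 7 sgRNAs each, and comprise 7 alpha subunits (ITGA2, ITGA2B, ITGA4, ITGA5, ITGAE, ITGAL and ITGAV) and 6 beta subunits (ITGB1, ITGB2, ITGB3, ITGB5, ITGB6 and ITGB7). The screen asked which druggable genes set PRMT5 protein levels in platinum-resistant COV362 cells, an established line of high-grade serous ovarian cancer that was made to express Cas9. The transduced cells were divided into replicate cultures, stained for PRMT5 and sorted into a PRMT5lo population with the weakest staining and a PRMT5hi population with the strongest, with 4 libraries of each. Both populations came from the same transduced cells and were handled alike until the sort. Cas9 cutting followed by imprecise repair disrupts the targeted gene, and the reads of an sgRNA stand for the cells that carried it.

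Integrins are cell surface receptors made of an alpha and a beta subunit that bind matrix proteins or other cells on the outside and link to the actin cytoskeleton and to kinases such as FAK on the inside. A subunit without its partner is largely retained inside the cell, so a heterodimer can be lost by disrupting either chain. ITGB3 encodes β3, which pairs with αv (ITGAV) to form a vitronectin and fibronectin receptor and with αIIb (ITGA2B) to form the fibrinogen receptor of platelets. αv also pairs with β1, β5 and β6. β1 (ITGB1) is the common partner of many alpha chains, among them α2 (ITGA2, a collagen receptor), α4 (ITGA4) and α5 (ITGA5, the classical fibronectin receptor). β2 (ITGB2) with αL (ITGAL), and β7 (ITGB7) with α4 or αE (ITGAE), are mainly leukocyte receptors. The expression of these genes in COV362 cells was not measured in the screen.

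The values below are the authors' CPM (sgRNA reads of a library scaled to a common total), each a mean over the 4 libraries of a population, so no spread between single libraries can be shown. The deposited table names its populations only a and b. Here b was read as PRMT5lo and a as PRMT5hi, following the study's source data, which give the test toward a for the PRMT5hi group, and its figure legend, which assigns positive changes to PRMT5lo, whereas its methods text assigns them to PRMT5hi. With the other reading every direction below would turn round, while sizes and p-values would stay. The paper reports lower PRMT5 protein after depleting ITGB3 with independent sgRNAs. That is the direction which the reading used here gives the ITGB3 sgRNAs. The recovered depth was 19117396 reads for PRMT5lo and 16166859 reads for PRMT5hi, or 458 and 388 reads per sgRNA and library. The log2 ratio of an sgRNA is log2 of CPM + 1 in PRMT5lo over CPM + 1 in PRMT5hi, so a positive value marks more cells with that sgRNA among those with little PRMT5, and the added 1 understates changes of rare sgRNAs. The standard error (SE) of a ratio was carried over from the authors' variance between libraries, and SD denotes the spread over the 7 sgRNAs of a gene, which are not biological replicates. The median SE was 0.25 for integrin sgRNAs and 0.23 for all targeting sgRNAs. Control sgRNAs (n = 500) had a mean ratio of 0.019 and an SD of 0.25, with their 5th percentile at -0.39 and their 95th at 0.43.

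Of the 13 integrins, ITGB3 had the highest ratio. Its sgRNAs had a mean log2 ratio of 0.49 (SD 0.40, propagated SE 0.12), which is a 1.40-fold higher abundance in PRMT5lo cells, and 6 of its 7 sgRNAs were more abundant there. This mean ranked 2 among 1420 genes, while the combined p of ITGB3 toward PRMT5lo ranked 15. The other 12 integrins lay between -0.05 and 0.19, 11 of them between -0.05 and 0.07, and each of the 12 means was smaller than its own propagated SE. ITGB3 was the only integrin called toward PRMT5lo, at a one-sided p under 0.01 from Fisher's method over its sgRNAs and a mean above 0.25, a rule that 10 library genes (0.704%) passed. No integrin was called toward PRMT5hi, where 12 library genes (0.845%) were. The p of ITGB3 was 0.00252 (adjusted p = 0.232 over all genes by Benjamini-Hochberg), so its call did not survive adjustment over the library. The study singled out ITGB3 from these libraries, and its high rank by mean here is therefore a description and not independent support. The paper's separate evidence is that depleting ITGB3 with independently designed sgRNAs substantially lowered PRMT5 protein, which was not examined here.

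The ratios of the ITGB3 sgRNAs ran from -0.16 to 0.94. Their SD was 1.22 times the root mean square of their SEs, a factor above 1 in 45.1% of library genes. sgRNA 4 stood at 108 CPM in PRMT5lo cells, against 55.9 CPM in PRMT5hi cells (log2 ratio 0.94, SE 0.39). sgRNA 2 stood at 52.0 CPM in PRMT5lo, against 28.7 CPM in PRMT5hi (0.83, SE 0.26), and sgRNA 1 at 33.9 CPM in PRMT5lo, against 19.1 CPM in PRMT5hi (0.80, SE 0.51). These 3 sgRNAs carried most of the mean. sgRNA 7 followed with 100.4 CPM in PRMT5lo and 73.5 CPM in PRMT5hi (0.44, SE 0.31), and sgRNA 3 with 60.4 CPM in PRMT5lo and 45.8 CPM in PRMT5hi (0.39, SE 0.24). sgRNA 5 was nearly level, at 64.1 CPM in PRMT5lo and 56.7 CPM in PRMT5hi (0.18, SE 0.25). sgRNA 6 ran the other way, with 129 CPM in PRMT5lo and 144 CPM in PRMT5hi (-0.16, SE 0.20). The most abundant sgRNA of the gene was thus the one without a lean to PRMT5lo, while the 2 rarest had ratios of about 0.8. The abundance and the ratio share the same CPM values, so this order is a description only.

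Taken one by one, few of these differences exceeded the spread between libraries. sgRNA 2 of ITGB3 had a one-sided p of 0.00999 and sgRNA 4 of 0.0345 in the recomputed CB2 test, and the other 5 had p-values from 0.0788 to 0.775. None passed adjustment over all 10429 sgRNAs (smallest adjusted p = 0.576), of which 4 (0.0384%) did toward PRMT5lo and none (0.00%) toward PRMT5hi. The p of sgRNA 2 rests on a PRMT5lo variance at the smallest value that the authors' method allows, which reflects read counting alone. With variances taken from their trend over abundance, its p was 0.0322, that of sgRNA 4 was 0.00651, and the gene's combined p was 0.00123. Without sgRNA 2 the combined p of ITGB3 was 0.0191 (mean 0.43) and the gene was no longer called, whereas it was called without any single one of the other 6.

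Measured against the control sgRNAs, 4 of 7 ITGB3 sgRNAs had a ratio above the controls' 95th percentile, and none lay below their 5th. Of the 84 sgRNAs against the other 12 integrins, 5 (5.95%) lay above and 5 below. Over all targeting sgRNAs these shares were 5.96% above and 8.37% below. The other integrins thus lay near the share of the library in the PRMT5lo direction. The 5 high ones were sgRNAs 1 and 7 of ITGAV, sgRNA 5 of ITGA2B and sgRNAs 5 and 6 of ITGB7. sgRNA 7 of ITGB3 (0.444) and sgRNA 7 of ITGAV (0.4314) passed the limit of 0.4309 narrowly. The controls were more abundant, with a median of 123 CPM in each population. Integrin sgRNAs had medians of 74.0 CPM in PRMT5lo and 69.4 CPM in PRMT5hi. Controls of matched abundance were not tested. The SD of 0.25 over the 84 sgRNAs was also that of the controls (0.25) and lower than that of all targeting sgRNAs (0.29), and 46 of 84 (54.8%) had a ratio above 0, against 49.8% of targeting sgRNAs.

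ITGAV, the alpha chain that β3 shares with β1, β5 and β6, had the second highest mean of the family at 0.19 (SD 0.27, SE 0.20), with 5 of 7 sgRNAs above 0 and rank 62 among the library genes. Its combined p toward PRMT5lo was 0.366 and ranked 537, so the gene was not called. The highest ratio came from sgRNA 1, at 6.55 CPM in PRMT5lo and 4.15 CPM in PRMT5hi (0.55, SE 0.80), which is about 125 reads in PRMT5lo and 67 reads in PRMT5hi over all 4 libraries. sgRNA 4 was also rare, at 10.1 CPM in PRMT5lo and 7.34 CPM in PRMT5hi (0.42, SE 0.94). For both, the SE was larger than the ratio. sgRNA 7 stood at 63.5 CPM in PRMT5lo, against 46.8 CPM in PRMT5hi (0.43, SE 0.29), and sgRNA 5 at 179 CPM in PRMT5lo, against 164 CPM in PRMT5hi (0.13, SE 0.18). The remaining sgRNAs were close to level. sgRNA 3 had 59.7 CPM in PRMT5lo and 59.0 CPM in PRMT5hi (0.02, SE 0.25), sgRNA 6 had 53.7 CPM in PRMT5lo and 56.5 CPM in PRMT5hi (-0.07, SE 0.53), and sgRNA 2 had 63.9 CPM in PRMT5lo and 69.4 CPM in PRMT5hi (-0.12, SE 0.13). With only the 5 sgRNAs of at least 20 CPM, the mean of ITGAV was 0.08 (SD 0.22), next to those of ITGB1, ITGAE and ITGA5 (0.07 each).

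ITGA2B, whose product pairs with β3 alone, averaged 0.07 (SD 0.39, SE 0.09). Its ratio was above 0 for 4 of 7 sgRNAs, and its combined p toward PRMT5lo was 0.242. That mean rests on sgRNA 5, at 55.6 CPM in PRMT5lo and 31.6 CPM in PRMT5hi (0.80, SE 0.27), and it was -0.05 without it. In the recomputed CB2 test this sgRNA had a one-sided p of 0.0441 toward PRMT5lo (adjusted p = 0.850). sgRNA 1 lay at the other end, at 74.9 CPM in PRMT5lo and 101 CPM in PRMT5hi (-0.43, SE 0.35). sgRNA 2 had 94.4 CPM in PRMT5lo and 79.1 CPM in PRMT5hi (0.25, SE 0.12). The remaining 4 were within 1 SE of level. They were sgRNA 6 with 152 CPM in PRMT5lo and 141 CPM in PRMT5hi (0.10), sgRNA 7 with 58.2 CPM in PRMT5lo and 56.7 CPM in PRMT5hi (0.04), sgRNA 4 with 88.4 CPM in PRMT5lo and 97.2 CPM in PRMT5hi (-0.14), and sgRNA 3 with 77.3 CPM in PRMT5lo and 85.1 CPM in PRMT5hi (-0.14).

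The difference between ITGB3 and each other gene was then tested with the propagated error, two-sided and adjusted over the 1419 pairs of ITGB3 with another library gene. Because ITGB3 was singled out from these same libraries, these differences carry that choice, and their p-values and intervals are no independent evidence that it was higher. Its difference from ITGA2B was 0.42 (95% interval 0.11 to 0.73, adjusted p = 0.0133), and the adjusted p was 0.0511 without sgRNA 4 of ITGB3. Its difference from ITGAV was 0.30 (95% interval -0.19 to 0.79, adjusted p = 0.227), which did not pass the test. The interval holds both no difference and a difference as large as the ITGB3 mean itself. With only sgRNAs of at least 20 CPM, the difference from ITGAV was 0.41 (adjusted p = 0.0387). Against the other beta subunits ITGB3 was higher by 0.41 (ITGB1, 95% interval 0.06 to 0.77), 0.54 (ITGB2, 0.24 to 0.84), 0.44 (ITGB5, 0.06 to 0.83), 0.48 (ITGB6, 0.18 to 0.78) and 0.44 (ITGB7, 0.10 to 0.79). In all, 11 of the 12 integrins differed from ITGB3 at an adjusted p under 0.05, as did 91.1% of library genes, so the integrins were near the background of the library. When the error was taken from the spread between sgRNAs of each gene, 5 of 12 integrins differed (63.8% of library genes), and ITGA2B did not (adjusted p = 0.0812). Without sgRNA 2 of ITGB3, 7 of 12 differed, and without sgRNA 4, 6 of 12. The share of library genes that differed was not counted in either case, so these lower counts say nothing particular to integrins.

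Outside the pairs with ITGB3 or ITGAV, both chains had low ratios. ITGB1 had a mean of 0.07 (SD 0.14), and its 7 sgRNAs ran from -0.15 (75.9 CPM in PRMT5lo and 84.5 CPM in PRMT5hi) to 0.29 (51.7 CPM in PRMT5lo and 42.1 CPM in PRMT5hi). Of its alpha partners, ITGAV had the higher mean given above (0.19), and the others had means of 0.07 (SD 0.25) for ITGA5, -0.01 (SD 0.25) for ITGA2 and -0.02 (SD 0.20) for ITGA4. The sgRNAs of ITGA5 ran from -0.28 to 0.37 and those of ITGA4 from -0.34 to 0.22. ITGA2 held the most abundant integrin sgRNA, sgRNA 5, at 322 CPM in PRMT5lo and 246 CPM in PRMT5hi (0.39, SE 0.13). In the recomputed CB2 test that sgRNA had a one-sided p of 0.0122 toward PRMT5lo (adjusted p = 0.625). Most sgRNAs of the gene lay below 0, the lowest at -0.28.

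Of the beta chains that share αv with β3, ITGB5 had a mean of 0.05 (SD 0.27) and ITGB6 of 0.01 (SD 0.30). The sgRNAs of ITGB5 ran from -0.40 (40.3 CPM in PRMT5lo and 53.6 CPM in PRMT5hi) to 0.43 (128 CPM in PRMT5lo and 94.8 CPM in PRMT5hi). Those of ITGB6 ran from -0.46 (48.6 CPM in PRMT5lo and 67.4 CPM in PRMT5hi) to 0.38 (118 CPM in PRMT5lo and 90.3 CPM in PRMT5hi). Both of these ITGB6 sgRNAs had a one-sided p under 0.05 in the CB2 test, in opposite directions (0.0447 toward PRMT5hi and 0.0342 toward PRMT5lo), so the sgRNAs of this gene did not share a direction.

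Among the leukocyte integrins, ITGB2 had a mean of -0.05 (SD 0.13), its partner ITGAL of -0.01 (SD 0.28) and ITGAE of 0.07 (SD 0.13). The sgRNAs of ITGB2 ran from -0.23 to 0.14, those of ITGAE from -0.13 to 0.24 and those of ITGAL from -0.40 to 0.35. ITGB7 had a mean of 0.05 but the widest spread of the family (SD 0.40), from -0.48 for sgRNA 1 (44.3 CPM in PRMT5lo and 62.2 CPM in PRMT5hi) to 0.55 for sgRNA 6 (74.5 CPM in PRMT5lo and 50.5 CPM in PRMT5hi). sgRNA 7 of ITGB7 had the smallest p of all 91 sgRNAs, 0.00258 toward PRMT5lo (adjusted p = 0.324), with 136 CPM in PRMT5lo and 120 CPM in PRMT5hi (0.19, SE 0.04). Its variance was at the smallest allowed value in both populations, and with the trend variance its p was 0.205. In all, 6 integrin sgRNAs had a one-sided p under 0.05 toward PRMT5lo, 2 of them against ITGB3, and 1 toward PRMT5hi, against 5.66% and 6.00% of targeting sgRNAs.

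The integrins differed in how far their own sgRNAs agreed. The SD over sgRNAs was set against the root mean square of the SEs of the gene's sgRNAs. It exceeded this typical SE in 5 of the 13 integrins. The factor was 1.59 for ITGA2B, 1.35 for ITGB6, 1.27 for ITGB7, 1.22 for ITGB3 and 1.11 for ITGA2. Over the library this held for 45.1% of genes. In ITGAV and ITGB1 the spread was 0.51 and 0.42 of the typical SE. The sgRNAs of ITGB1 thus differed by less than their typical SE, which the rare sgRNA 2 (SE 0.60) raised. For ITGAV the typical SE was raised by the rare sgRNAs 1 and 4 (SE 0.80 and 0.94), so the low value does not show agreement.

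The abundance of integrin sgRNAs, taken as log2(CPM + 1) averaged over both populations, was lower than in most of the library. The median over the 13 genes was 6.05, against 6.39 over all genes, and 10 of 13 lay below the library median. ITGAV was the lowest of the family at 5.28 (SD 1.69), which ranked 59 from the bottom among 1420 genes. ITGB6 (5.92, SD 0.65), ITGB5 (5.92, SD 0.76), ITGB3 (5.94, SD 0.78), ITGA4 (5.95, SD 0.89) and ITGAL (5.99, SD 0.70) came next and did not differ beyond their spread over sgRNAs. ITGB1 stood at 6.05 (SD 1.11), ITGB7 at 6.18, ITGA5 at 6.27 and ITGA2B at 6.33. At the top were ITGB2 (6.73), ITGAE (6.77) and ITGA2 (6.82), each with an SD between 0.71 and 0.79.

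The low place of ITGAV came from sgRNAs 1 and 4, which were among the rarest 0.483% and 0.947% of targeting sgRNAs, while its other 5 averaged 6.21, above 33.1% of library genes. Besides these, only sgRNA 2 of ITGB1 averaged under 20 CPM, at 18.0 CPM in PRMT5lo and 16.8 CPM in PRMT5hi. That makes 3 of 91 integrin sgRNAs, near the share of 3.38% over all targeting sgRNAs. All 3 were rare in both populations. Starting abundance was not measured in these samples, so loss during culture and the makeup of the library cannot be told apart.

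Among genes that act with integrins, none was called by Fisher's method. Over the library, 0.704% of genes were called toward PRMT5lo and 0.845% toward PRMT5hi, so none in lists this short is near the background. Of 12 ligand genes, 8 had a mean ratio above 0 (48.5% of library genes did), with a median of 0.03 (median of all genes -0.0033). The highest was VWF, a ligand of αIIbβ3 and αvβ3, with 0.15 (SD 0.23, p = 0.0599 toward PRMT5lo from Fisher's method), and the lowest TGFB3, whose latent form binds αv integrins, with -0.10 (SD 0.15). FN1, fibronectin, had a mean of -0.07, SPP1, osteopontin, of 0.05, and the fibrinogen chains FGA, FGB and FGG of -0.04, 0.04 and 0.03.

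Of 17 kinases that act at adhesions, 6 had a mean above 0, and the median was -0.03. PTK2, which encodes FAK, averaged -0.05 (SD 0.42, 4 of 7 sgRNAs above 0), and SRC, which acts with FAK, -0.03 (SD 0.11). The highest mean was that of ABL2, 0.15 (SD 0.11), with all 7 sgRNAs above 0 and a p of 0.113 toward PRMT5lo from Fisher's method. The lowest were ROCK2, a kinase of actomyosin contraction, with -0.36 (SD 0.46) and CSK, the inhibitory kinase of SRC, with -0.34 (SD 0.44). Their p-values toward PRMT5hi from Fisher's method, 0.0149 and 0.0166, missed the limit of 0.01. Both were called toward PRMT5hi with limma (adjusted p = 0.504 for each), among 28 library genes called there by the same unadjusted limit. ROCK2 was also called with trend variances, among 9 library genes. CSK was also called with Stouffer's method, among 17 library genes, and with sgRNAs of at least 20 CPM, among 14. The sgRNAs of PTK2 were also rare, with a mean abundance of 5.21, which 3.73% of genes did not exceed. Of 5 other matrix receptors, 1 had a mean above 0, BSG with 0.11. The lowest was CD44, the hyaluronan receptor, with -0.17 (SD 0.18).

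By the RefSeq annotation of GRCh38, ITGB3 lies on chromosome 17 from 47253827 to 47313743 and its partner ITGA2B on the same chromosome from 44372181 to 44389649. ITGAV lies on chromosome 2 from 186590056 to 186680901, with ITGA4 (from 181457205) and ITGB6 (from 160099671) on the same chromosome. ITGA5 and ITGB7 are both on chromosome 12, ITGAE on 17, ITGA2 on 5, ITGB1 on 10, ITGB2 on 21, ITGB5 on 3 and ITGAL on 16. The 3 integrins of chromosome 17 had means of 0.49 (ITGB3), 0.07 (ITGA2B) and 0.07 (ITGAE). The cut sites and sequences of the sgRNAs were not used here, so exon, domain and cutting at paralogs were not examined.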

How the data were processed

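CPM values were deposited as the authors' means over the 4 libraries of each population, from reads mapped to the sgRNA sequences. The deposited fractions are the authors' CB2 estimates of an sgRNA's share of reads, with a variance over libraries. FastQC and hg38 are named by the submitters, while the versions of CB2 and of the mapping tool were not given. The authors' fold changes, p-values and gene table were not used.

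From shares and variances the CB2 test was recomputed per sgRNA (t tail with Welch-Satterthwaite degrees of freedom, one-sided) and combined per gene by Fisher's method, with Benjamini-Hochberg adjustment over 1420 genes. Genes were called at p under 0.01 and a mean beyond 0.25. Differences between genes treated sgRNAs as independent, although they share libraries. Cultures were divided only after transduction, so p-values hold no spread between transductions. The smallest allowed variance, held by 11 integrin sgRNAs in PRMT5lo and 8 in PRMT5hi, gave the depth. PCR reads are not independent molecules, so depth sets counting error only.

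Members, gene lists and tests were chosen with earlier results of these data known. Named were all 13 integrins, every sgRNA of ITGB3, ITGAV and ITGA2B, the extreme sgRNAs of the others, and the highest and lowest of each list. FN1, SPP1, the fibrinogen chains, PTK2, SRC and further single sgRNAs were named after their values were seen. Alternatives were pseudocounts of 5 and 10 CPM in place of 1, a minimum of 20 CPM with at least 3 sgRNAs, centring on controls, Stouffer's method, medians, limma 3.58.1, each sgRNA left out, the spread between sgRNAs as error, and variances from a trend over 20 bins. The analysis used Python 3.11.15 and SciPy 1.17.1 and was tested on simulated data.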

Additional observations from a re-analysis of the deposited data

How the results depend on the processing

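ITGB3 stayed the only called integrin with every alternative run on all genes, and its mean ran from 0.41 to 0.49 there. Leaving out any single sgRNA of ITGB3 gave means of 0.41 to 0.60 and p-values of 0.0010 to 0.0191, and the call was lost without sgRNA 2. The number of library genes called toward PRMT5lo, 10, was 4 with a pseudocount of 10 CPM, 4 with variances from the trend and 16 with limma. Toward PRMT5hi, 12 became 7 with medians and 28 with limma. Limma takes the spread between sgRNAs as error but draws it toward the typical spread over all genes. With limma, ITGB3 had a two-sided p of 0.000437 (adjusted p = 0.207). Its error is thus not the spread of the ITGB3 sgRNAs alone.

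The difference of ITGB3 from ITGAV, 0.30, was 0.41 (adjusted p = 0.0387) with at least 20 CPM. That from ITGA2B, 0.42, had an adjusted p of 0.0812 with the spread between sgRNAs as error, and it ran from 0.34 to 0.53 with each ITGB3 sgRNA left out, passing in all but the case without sgRNA 4 (0.34, adjusted p = 0.0511). The number of integrins that differed from ITGB3, 11, was 5 with the spread between sgRNAs and 12 with at least 20 CPM. It ran from 6 to 11 with an ITGB3 sgRNA left out. The share of library genes was counted for the spread between sgRNAs but not for the other alternatives. With trend variances, sgRNAs of other integrins at p under 0.05 numbered 2 toward PRMT5lo, in place of 4, and 0 toward PRMT5hi, in place of 1. The share of all targeting sgRNAs was not counted with these variances, so the drop cannot be set against the library.

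Means near 0 changed sign. ITGB6 was -0.00138 when centred on the controls, and with medians ITGAL was 0.0315, ITGB6 -0.0348 and ITGB7 -0.0290. With an sgRNA left out the means ran from -0.0770 to 0.0348 for ITGA2, -0.0509 to 0.153 for ITGA2B, -0.0579 to 0.0362 for ITGA4, -0.0726 to 0.0535 for ITGAL, -0.0149 to 0.123 for ITGB5, -0.0518 to 0.0884 for ITGB6 and -0.0373 to 0.135 for ITGB7. The cause was not tested. No paired analysis was possible because the deposited values are pooled over the libraries of a population, and for the same reason no library could be left out.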
